A study of Mus musculus with 11 samples.

Results

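The genes described here are 43 cell cycle and DNA replication genes, a list of markers of proliferating cells named one by one. It runs from the factors that license replication origins, through the cyclins and the enzymes of DNA synthesis, to the kinases and motor proteins of mitosis. The array carried at least 1 probe for each of the 43, among 20145 genes that could be named. Of these 43, 39 were detected (well above background) on 3 or more of the 11 arrays and were tested, among 14069 named genes and 29430 features in all. The remaining 4, Ccne2, Aurkb, Bub1 and Cenpf, were not well above background on any array. A set of 27 was well above background on all 11.

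RNA came from mouse mammary outgrowths. Primary mammary epithelial cells were infected with lentivirus carrying a hairpin against luciferase (shLUC, the control) or against the Wnt receptor Ror2 (shROR2), aggregated and injected in Matrigel. Luminal cells, which line the ducts, and basal cells, the contractile outer layer, were sorted from the outgrowths on CD24 and CD29. The groups were luminal shLUC (3 arrays), luminal shROR2 (2), basal shLUC (3) and basal shROR2 (3), which the labels call biological replicates. A further sample of luminal shROR2 cells was not analysed here. Every group went through the same transduction, transplantation, sorting and whole-transcriptome amplification. Strain, age and host of the mice, and which samples share an outgrowth, are not given in the sources used here. The study set out to find what Ror2 does in each compartment.

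Cells that divide copy their DNA once per cycle and then separate the copies. Before S phase the origin recognition complex, with Cdc6 and Cdt1, loads the MCM helicase on DNA, and E2F transcription factors drive many of these genes together with those of nucleotide synthesis. Later, cyclin B with Cdk1, the Plk1 and Aurora kinases and the spindle checkpoint control mitosis, and many of their genes carry a promoter element called CHR, often beside CCAAT boxes, bound by the MuvB complex. Quiescent cells hold most of these transcripts low, so their summed level is widely read as a measure of cycling. In sorted bulk RNA, a smaller share of cycling cells and less RNA per cycling cell cannot be told apart.

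RefSeq promoter windows (GRCm38.p6, 250 bases before to 50 after the start of the gene) were found for 32 of the 43 genes, 33 windows in all since Mcm7 has 2. Searched on both strands were the E2F motif as TTCCCGC or TTGGCGC, the CHR as TTTGAA, and the CCAAT box as CCAAT. An E2F motif stood in 33.3% of the windows of the list, against 6.81% of all 32851 windows of the table. A CHR stood in 42.4% against 17.9%, and a CCAAT box in 78.8% against 37.4%. Among genes for licensing, firing, DNA synthesis and nucleotide supply, 8 of 13 windows held an E2F motif and 1 held a CHR. Among genes for mitotic kinases, checkpoint, anaphase-promoting complex, centromere and spindle, 0 of 12 windows held an E2F motif and 8 held a CHR, each of the 8 with a CCAAT box as well. The windows of the list had a median GC content of 57.7%, and all windows 52.7%. The CHR matches often lay after the start. Without the 50 bases after it, a CHR stood in 24.2% of the windows of the list and in 3 of the 12 mitosis windows (25%, in place of 66.7%), against 16% of all windows, and an E2F motif in 6 of the 13 replication windows. These matches describe letters in a window and are not binding sites.

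Printed below are stretches from 250 bases before to 30 after the start for 6 genes on which the results turn or which show a motif class, 5′ to 3′ on the strand of the gene, with motif matches in capitals. Mcm6 (chr1:128359676-128359955, minus strand) and the first of the windows of Mcm7 (chr5:138171854-138172133, minus strand), both coding for subunits of the replicative helicase, hold E2F motifs. Near its 3′ end the Mcm7 stretch has an E2F motif overlapping a CCAAT box. Mki67 (chr7:135716350-135716629, minus strand) holds both E2F and CHR motifs. Cdc20 (chr4:118437314-118437593, minus strand) and Traip (chr9:107950713-107950992, plus strand) hold a CHR, and in Orc1 (chr4:108579204-108579483, plus strand) the search found CCAAT boxes only.
Mcm6: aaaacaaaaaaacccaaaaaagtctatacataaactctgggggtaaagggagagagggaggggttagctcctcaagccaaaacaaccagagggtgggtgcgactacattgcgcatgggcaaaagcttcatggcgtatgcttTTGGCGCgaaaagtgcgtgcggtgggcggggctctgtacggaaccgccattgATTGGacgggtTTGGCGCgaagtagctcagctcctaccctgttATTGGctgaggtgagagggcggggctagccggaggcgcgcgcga
Mcm7: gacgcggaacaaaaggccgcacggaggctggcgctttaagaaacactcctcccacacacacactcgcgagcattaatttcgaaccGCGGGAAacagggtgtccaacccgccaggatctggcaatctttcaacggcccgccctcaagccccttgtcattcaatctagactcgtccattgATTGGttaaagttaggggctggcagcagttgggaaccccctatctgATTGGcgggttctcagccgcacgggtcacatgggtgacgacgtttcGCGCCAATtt
Mki67: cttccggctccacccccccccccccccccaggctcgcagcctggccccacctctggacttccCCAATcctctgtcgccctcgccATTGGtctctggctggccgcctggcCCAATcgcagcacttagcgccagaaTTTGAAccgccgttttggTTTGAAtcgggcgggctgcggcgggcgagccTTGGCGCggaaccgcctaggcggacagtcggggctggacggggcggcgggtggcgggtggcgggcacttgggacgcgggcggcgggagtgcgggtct
Cdc20: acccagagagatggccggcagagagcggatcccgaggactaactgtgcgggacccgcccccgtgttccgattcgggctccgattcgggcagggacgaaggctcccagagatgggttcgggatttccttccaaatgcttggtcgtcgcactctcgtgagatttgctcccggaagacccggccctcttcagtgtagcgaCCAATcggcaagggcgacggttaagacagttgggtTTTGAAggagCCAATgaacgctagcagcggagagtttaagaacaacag
Traip: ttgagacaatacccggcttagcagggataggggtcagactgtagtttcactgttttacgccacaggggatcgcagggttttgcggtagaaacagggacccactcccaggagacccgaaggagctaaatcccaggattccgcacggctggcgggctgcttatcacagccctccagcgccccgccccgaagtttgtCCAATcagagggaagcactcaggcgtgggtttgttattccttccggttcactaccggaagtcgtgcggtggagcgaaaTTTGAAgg
Orc1: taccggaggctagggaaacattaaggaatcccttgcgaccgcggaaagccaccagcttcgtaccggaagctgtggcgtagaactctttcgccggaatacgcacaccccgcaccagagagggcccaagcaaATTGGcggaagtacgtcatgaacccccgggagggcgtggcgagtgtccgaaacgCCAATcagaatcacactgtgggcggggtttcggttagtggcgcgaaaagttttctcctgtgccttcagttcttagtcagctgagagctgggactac

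Detected probes made up 52.8% to 59.5% of each array, and no spot was saturated. The 6 basal markers (such as Krt5, Krt14 and Acta2) summed to 106 to 117 times the 75th percentile on luminal arrays and to 1387 to 1615 on basal ones. Most of the luminal sum was Trp63, whose probe was nearly level, at 6.43 to 6.58 on luminal and 6.62 to 6.85 on basal arrays (log2). The other basal markers were each lower on every luminal than on every basal array. The 6 luminal markers (such as Krt8 and Epcam) summed to 427.2 to 483.7 on luminal and to 60.04 to 92.24 on basal arrays, so both labels held. The targeted gene, Ror2, was well above background on 1 array, of basal shROR2, and its processed signal ran from 10.1 to 12.1 in basal shLUC and from 3.03 to 16.8 in basal shROR2. On luminal arrays it ran from 3.14 to 8.47. The direction of the knockdown thus cannot be read from this probe. Arrays of 1 group correlated at 0.976 or more in 3 groups and at 0.941 to 0.953 in basal shROR2.

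Values are log2 processed signals relative to the 75th percentile of the array, so that 0 is that percentile, and differences are in log2 units ± standard error of the fit. Adjusted p values come from limma with Benjamini-Hochberg adjustment over the 29430 features, and a gene was called when its adjusted p was under 0.05. Levels are compared between arrays for 1 probe, never between genes.

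Several cell cycle transcripts were lower in basal than in luminal cells of the control outgrowths. Of the 39 tested genes, 9 were lower in basal cells (Mcm6, Orc1, Birc5, Mki67, Plk1, Mcm3, Mcm5, E2f1 and Mcm7) and 1, Ccnd2, was higher. Basal and luminal cells differ widely, and 27.0% of all features were called, 13.3% as lower and 13.7% as higher in basal cells. The called members, 25.6% of those tested, were thus about as frequent as among all features, but 23.1% were called lower and 2.56% higher. The difference was below 0 for 32 of the 39, or 82.1%, against 54.6% of all features. Its median was -0.61, against -0.06 over all features. For 21 genes every basal shLUC array lay below every luminal shLUC array, a pattern that 28.7% of all features showed, and for 2 every one lay above, against 23.5%. Together these 23 genes compare with 52.2% of all features.

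**Figure D1:**
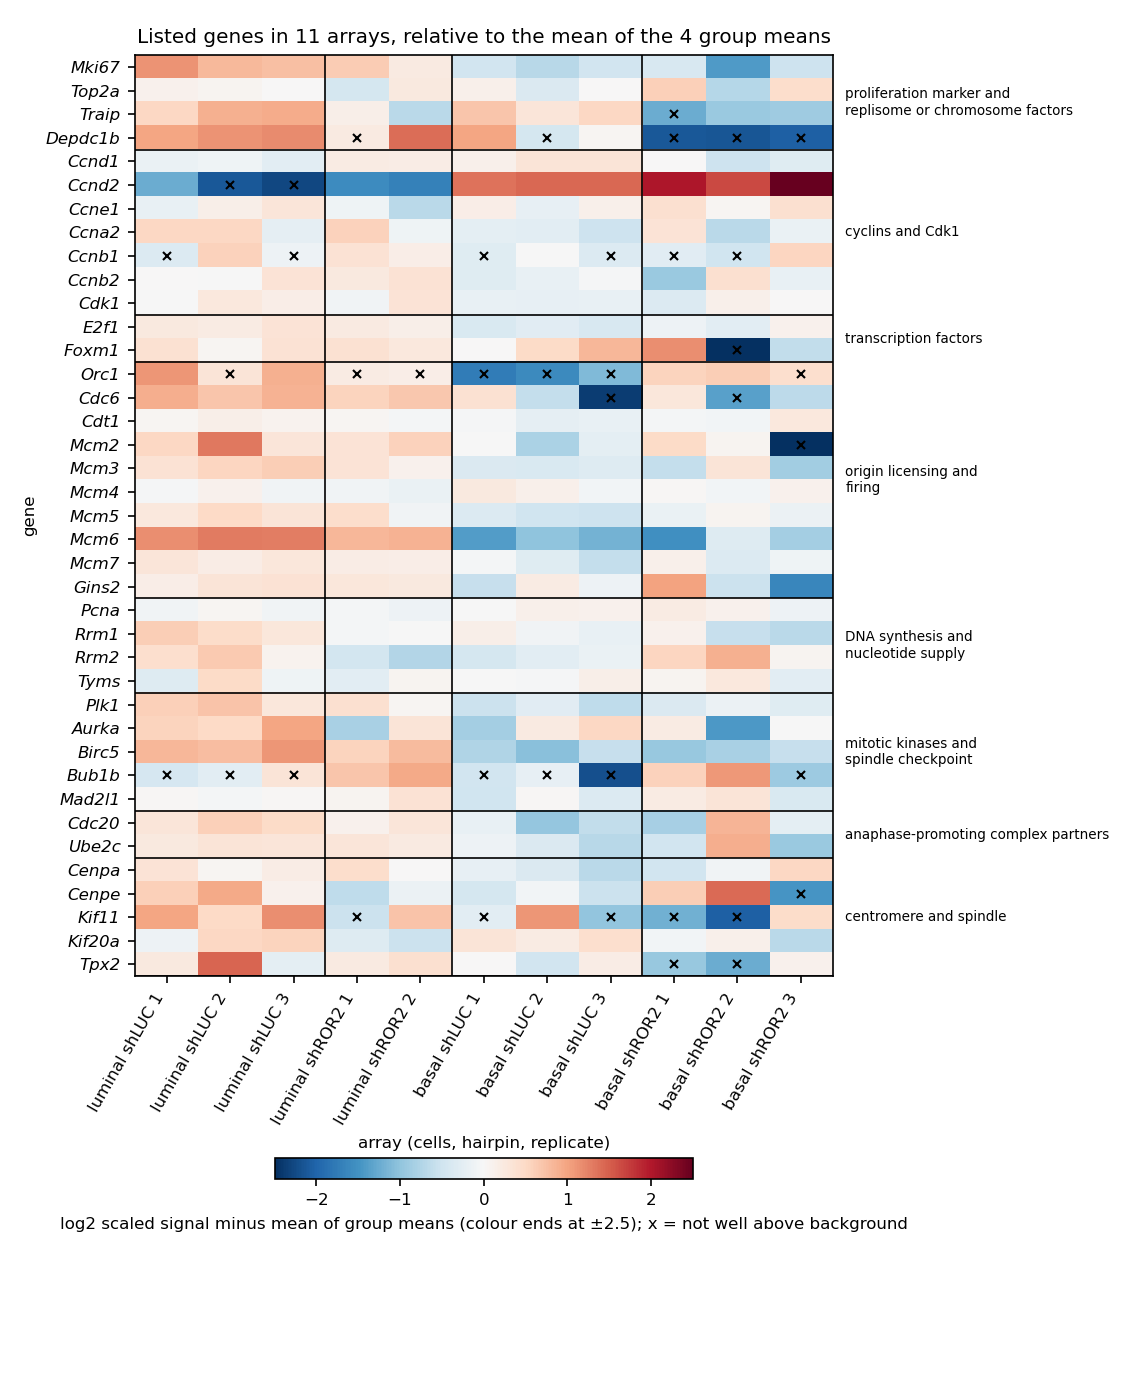
Level of the 39 tested genes (rows, by role) on each of the 11 arrays (columns), as log2 scaled signal minus the mean of the 4 group means of the gene; a cross marks an array where the probe was not well above background. Luminal shLUC arrays are mostly above that mean and basal shLUC arrays mostly below it, with Ccnd2 the other way, and the basal shROR2 columns differ most among themselves.

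Origin licensing and firing had 5 of the 10 calls, with 5 of its 10 genes lower in basal shLUC cells and a median of -0.84. Mcm6, a subunit of the replicative helicase, had values of 4.01, 4.15 and 4.13 on the luminal shLUC arrays, 3.68 and 3.72 on luminal shROR2, 1.46, 1.85 and 1.66 on basal shLUC, and 1.32, 2.53 and 2.00 on basal shROR2. All 5 luminal arrays lay above all 6 basal arrays. The difference between basal and luminal shLUC cells was -2.44 ± 0.26 (adjusted p = 0.000159, limma), a 5.43-fold lower signal. Of the 6 helicase subunits 4 were called. Mcm3 (-0.85 ± 0.27), Mcm5 (-0.82 ± 0.16) and Mcm7 (-0.58 ± 0.17) were called lower too, with adjusted p of 0.0425, 0.00429 and 0.0326. Mcm2 was at -1.06 ± 0.79 and not called, and Mcm4 at 0.10 ± 0.12.

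Orc1, the largest subunit of the origin recognition complex, was dim. It had -2.45, -3.23 and -2.65 on luminal shLUC, -3.34 and -3.39 on luminal shROR2, -5.30, -5.13 and -4.66 on basal shLUC, and -3.0, -2.93 and -3.12 on basal shROR2. Basal shLUC lay apart below the other groups and was not well above background on any of its 3 arrays. Luminal shLUC was thus at least 1.54-fold higher, the bound being set by the lowest signal well above background. Such bounds, here and below, hold for the processed signal only and not under the other background corrections. The fitted difference was -2.25 ± 0.22 (adjusted p = 9.59e-05, limma). In the authors' value table it was -0.38 and still called (adjusted p = 0.00175, limma). Of its partners in helicase loading, Cdc6 was at -1.69 ± 0.64 (adjusted p = 0.0823, limma) and Cdt1 at -0.25 ± 0.12 (adjusted p = 0.177, limma), neither called. Gins2, of the GINS complex that joins the helicase at firing, was at -0.44 ± 0.55.

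The genes of DNA synthesis and nucleotide supply had no call between basal and luminal shLUC cells. Pcna, the sliding clamp, was at 0.12 ± 0.12, and Tyms, thymidylate synthase, at 0.02 ± 0.22. The ribonucleotide reductase subunits Rrm1 and Rrm2 were at -0.49 ± 0.21 and -0.68 ± 0.22, the latter with an adjusted p of 0.0542 by limma. E2f1, a transcription factor of the G1 to S transition, was lower by a called -0.62 ± 0.12 (adjusted p = 0.0046, limma). Foxm1, which drives mitotic genes, was at 0.18 ± 0.96.

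Of the mitotic kinases and checkpoint genes, 2 of 5 tested were called lower in basal cells, and none higher. Birc5, or survivin, a member of the chromosomal passenger complex, had 2.57, 2.50 and 2.84 on luminal shLUC, 2.30 and 2.52 on luminal shROR2, 0.98, 0.69 and 1.15 on basal shLUC, and 0.79, 0.92 and 1.15 on basal shROR2. Luminal and basal arrays did not overlap under either hairpin, and the difference in shLUC cells was -1.70 ± 0.16 (adjusted p = 7.89e-05, limma). Its other probes gave -1.52 and -1.74. Plk1, a kinase that acts from mitotic entry to cytokinesis, had 0.53, 0.64 and 0.22 on luminal shLUC, 0.33 and -0.03 on luminal shROR2, -0.60, -0.35 and -0.70 on basal shLUC, and -0.44, -0.21 and -0.38 on basal shROR2. Again every luminal array was above every basal one, with -1.01 ± 0.16 in shLUC cells (adjusted p = 0.00176, limma). Aurka, Bub1b and Mad2l1 were at -0.72, -0.85 and -0.27, not called.

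Mki67, which codes for the antigen Ki-67, had 2.17, 1.87 and 1.81 on luminal shLUC, 1.69 and 1.29 on luminal shROR2, 0.57, 0.37 and 0.57 on basal shLUC, and 0.66, -0.36 and 0.54 on basal shROR2. The difference in shLUC cells was -1.44 ± 0.26 (adjusted p = 0.00334, limma), and a second probe, well above background on all 11 arrays, gave -1.20. Top2a, topoisomerase II, another marker of cycling cells, was at -0.14 ± 0.33 and not called. Both partners of the anaphase-promoting complex, Cdc20 (-1.05 ± 0.38) and Ube2c (-0.68 ± 0.40), had no overlap between basal and luminal shLUC arrays, but neither was called. Of the 5 tested centromere and spindle genes none was called, and their differences ran from -0.93 (Kif11) to 0.01 (Kif20a).

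Among the cyclins Ccnd2 was the only call. Ccnd2, a D-type cyclin of G1, had -1.95, -2.83 and -2.99 on luminal shLUC, -2.28 and -2.41 on luminal shROR2, 0.65, 0.73 and 0.73 on basal shLUC, and 1.31, 0.94 and 1.91 on basal shROR2. It was higher in basal cells by 3.29 ± 0.30 in shLUC (adjusted p = 5.73e-05, limma). The size of this difference is uncertain, since only 1 of 3 luminal shLUC arrays was well above background. It was 1.39 in the authors' value table and 1.49 with the normexp background correction, called in both (adjusted p = 5.17e-05 and 3.74e-05, limma). Its relative Ccnd1 was at 0.44 ± 0.14 (adjusted p = 0.0507, limma), without overlap of arrays. The later cyclins Ccne1, Ccna2, Ccnb1 and Ccnb2 were between -0.61 and -0.06, and Cdk1 at -0.34 ± 0.16, none called.

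**Figure D2:**
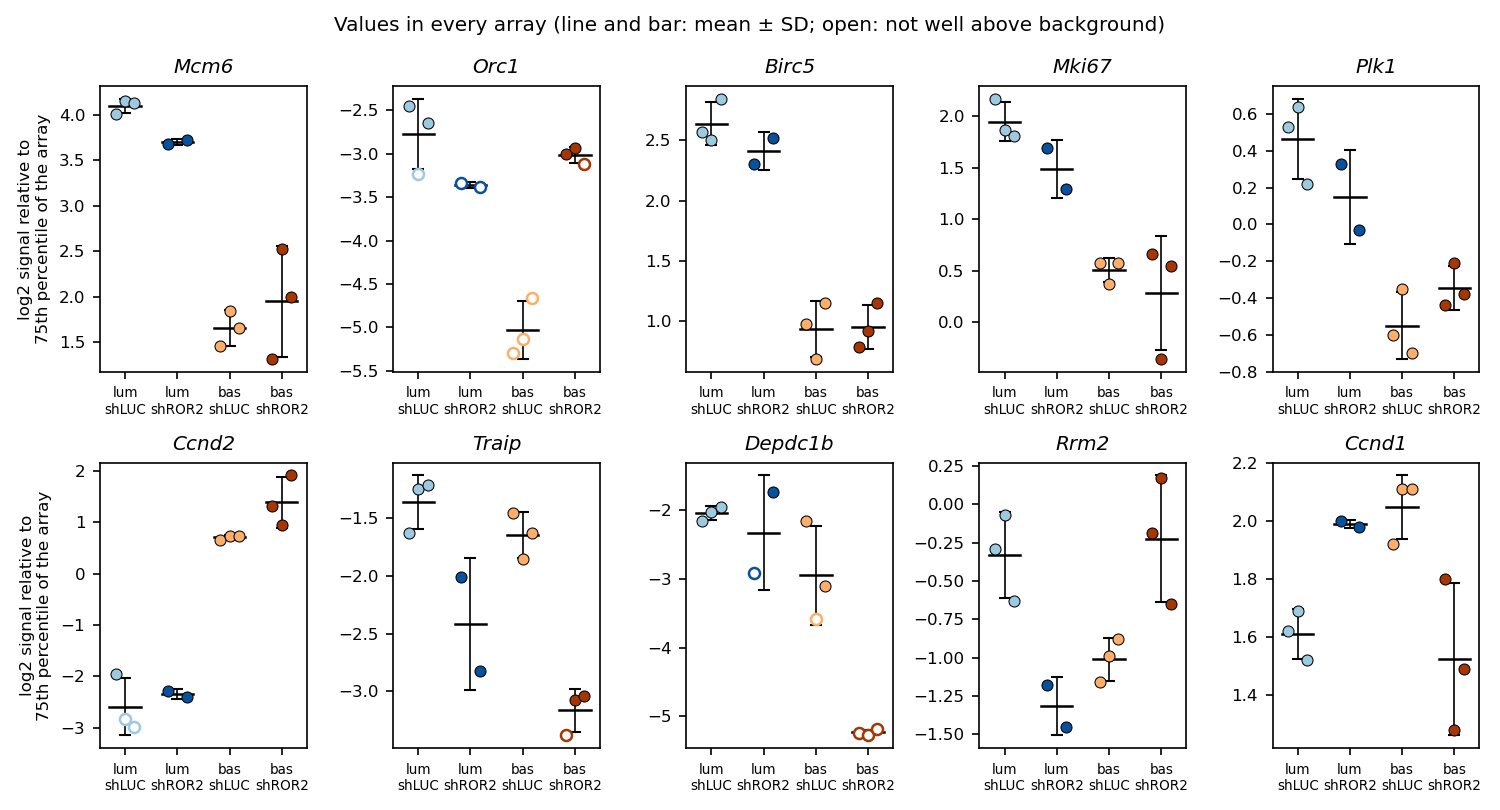
Log2 signal relative to the 75th percentile of the array, in every array of the 4 groups, for 10 genes; lines and bars are means ± SD, and open points were not well above background. Mcm6, Birc5, Mki67 and Plk1 split by compartment and Ccnd2 the other way, while Orc1, Traip and Depdc1b have 1 basal group apart from the other and Rrm2 and Ccnd1 cross over.

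Under shROR2 the same contrast gave 4 lower genes (Mcm6, Birc5, Mki67 and Depdc1b) and 2 higher ones (Ccnd2 and Rrm2), or 15.4% of the 39, against 22.8% of all features. Called lower were 10.3%, against 12.3% of all features. The median was -0.35, against -0.08, and 28 of 39 differences were below 0. Arrays did not overlap for 11 lower and 5 higher genes, against 26.0% and 19.7% of all features, or 45.7% in both directions. The shLUC and shROR2 contrasts share no array, but both use the 1 variance per gene of the fit. Called in both were 4 genes, Mcm6, Birc5, Mki67 and Ccnd2, which are 40% of the shLUC calls and 66.7% of the shROR2 calls. The share of all features called in both was not counted, so this overlap is not read as particular to the list. Mcm6 was at -1.75 ± 0.29, Birc5 at -1.46 ± 0.18, Mki67 at -1.21 ± 0.29 and Ccnd2 at 3.73 ± 0.34, with adjusted p of 0.00267, 0.000538, 0.0164 and 7.5e-05 by limma. The second Mki67 probe gave a smaller difference here, -0.69. Plk1 was at -0.50 ± 0.18 (adjusted p = 0.0829, limma) and Orc1 at 0.35 ± 0.25, neither of them called. Rrm2 was higher in basal shROR2 than in luminal shROR2 cells by 1.09 ± 0.25 (adjusted p = 0.0135, limma), the opposite side of 0 from its shLUC value. Whether the compartments differed more under one hairpin than under the other is the difference of hairpin effects given further on, which was called for no gene.

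**Figure D3:**
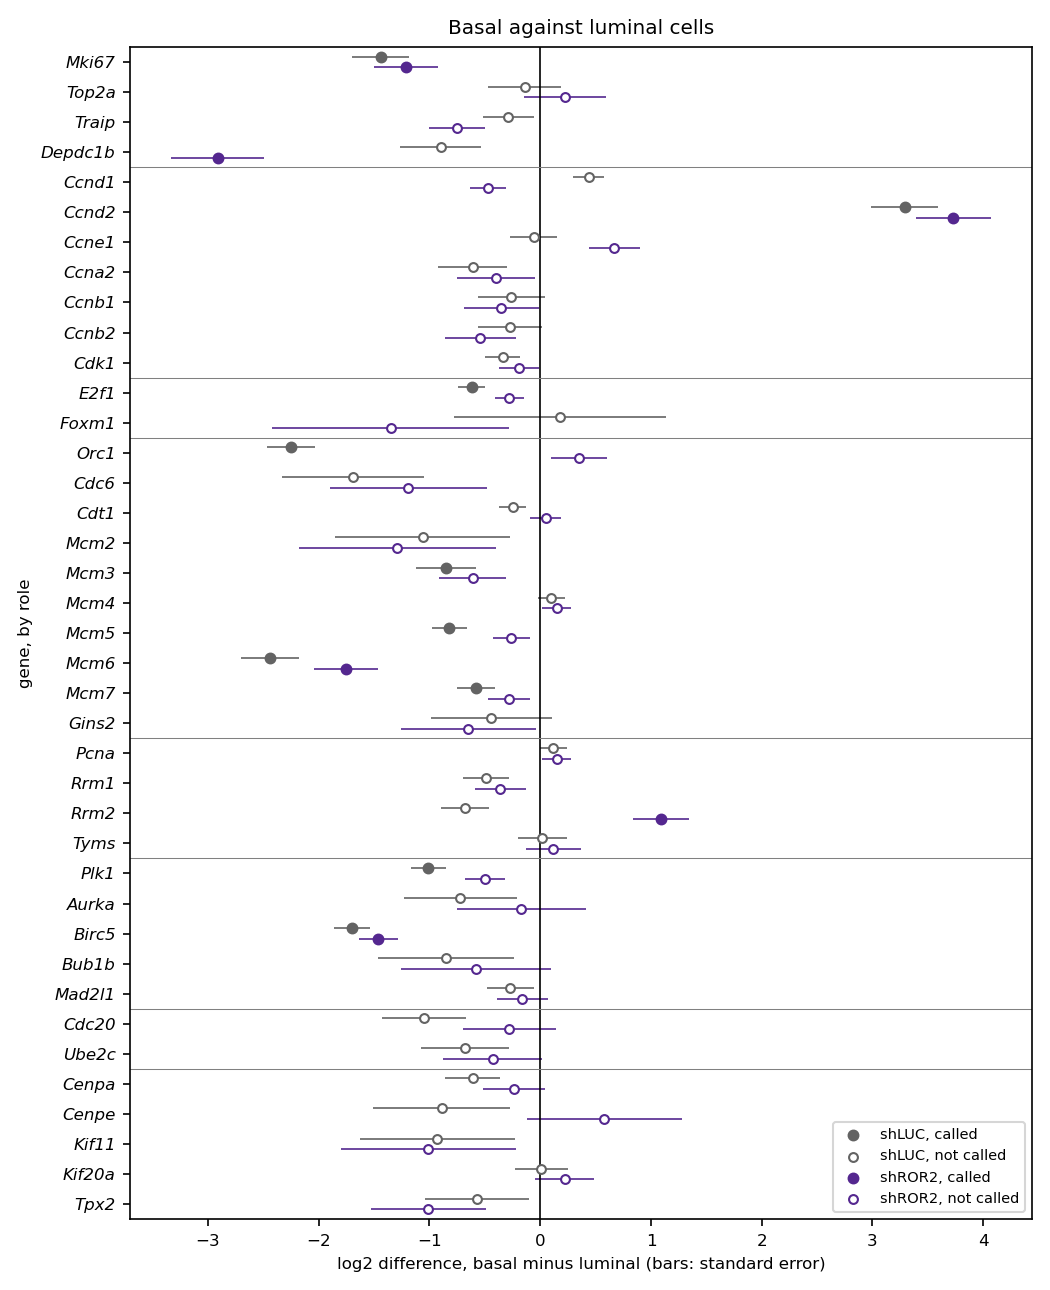
Log2 difference between basal and luminal cells for the 39 tested genes (rows, by role), in shLUC (grey) and shROR2 outgrowths (purple); bars are standard errors and filled points passed an adjusted p under 0.05. Most points lie left of 0, Ccnd2 lies right of 3 under both hairpins (dim in luminal cells, and between 1.39 and 1.98 under the other background corrections), and Orc1 and Rrm2 have their points on opposite sides of 0.

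The count of calls depends on how the spread is shared between groups. An alternative fit gave each group 1 array weight, shared by all genes. With it, or with the other groups left out of the fit, 17 of the 39 (43.6%) were called between basal and luminal shLUC cells in place of 10. Of all features 38.7% and 35.2% were called in these fits. Under shROR2 3 of 39 (7.69%) were called with the other groups left out, against 9.61% of all features. Mcm3 lost its shLUC call when any one of the luminal or basal shLUC arrays was left out, and Mcm7 without any one luminal array or without basal shLUC replicate 2 or 3. Mcm3 also lost it without either luminal shROR2 array (adjusted p = 0.0607, limma), with the slide as a block (0.0669), with the replicate number as a block (0.0654) and with no filter on dim probes (0.074), and Mcm7 with no filter (0.0628). E2f1 (-0.32), Plk1 (-0.66), and under shROR2 Rrm2 (0.55), Ccnd2 (1.87) and Depdc1b (-0.58) had smaller differences in the authors' value table but were called there too. Under shROR2 the calls of Mcm6 (adjusted p = 0.0618, limma), Mki67 (0.135) and Rrm2 (0.102) were lost with the other groups left out. Mki67 was not called without luminal shROR2 replicate 1 (0.133), nor Rrm2 without replicate 2 (0.103). Without basal shROR2 replicate 2, 10 genes were called under shROR2 (25.6%, against 25.7% of all features). Fibroblast markers summed to 47.62 to 52.07 on basal shLUC arrays and 6.149 to 6.298 on luminal shLUC arrays, with Pdgfra and Lum not well above background on luminal arrays, and endothelial markers to 19.53 to 24.47 and 10.66 to 11.43. Leukocyte markers without Itgam and Csf1r, whose probes were nearly level on all arrays and which were set aside after their values were seen (with them the sums were 418.3 to 523.6), came to 14.2 to 16.2 on basal and 28.5 to 30.8 on luminal shLUC arrays. Cd74 made up most of the sums without Itgam and Csf1r. Cd74, Lyz2 and Adgre1 were higher on luminal than on basal shLUC arrays without overlap, while Ptprc, Cd3e and Cd79a overlapped. Among the endothelial markers Kdr was nearly level on shLUC arrays, at 2.97 to 3.38 (log2), and made up most of the luminal sum. The part of fibroblasts, endothelial cells and leukocytes in the differences was not tested. Progenitor or alveolar markers (6.508 to 8.56 on basal and 90.08 to 100.7 on luminal shLUC arrays) and hormone-sensing markers (5.71 to 6.582 and 113.3 to 122.3) moved with the compartment too.

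In luminal cells no listed gene was called between shROR2 and shLUC outgrowths. By limma, 1 of all 29430 features was called, or 0.00340%, and at an unadjusted p under 0.05 there were 5 of 39 listed genes (12.8%) and 5.55% of all features. Of the differences, 31 of 39 were below 0 and the median was -0.17, against 0 over all features, where 50.2% were below 0. All 10 genes for origin licensing and firing were below 0, from -0.59 (Orc1) to -0.01 (Gins2), and 6 of them had no overlap between shLUC and shROR2 arrays. Over the list 14 genes were lower and 3 higher without overlap, against 14.6% and 14.4% of all features, or 29.0% in both directions. Of the 42 other replication genes described at the end, 26 were below 0, with a median of -0.06 and 8 lower without overlap.

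The 4 listed genes with the smallest p were Traip, Rrm2, Kif20a and Ccnd1. Traip, a ubiquitin ligase that acts on the replisome, had -1.63, -1.25 and -1.21 on luminal shLUC and -2.01 and -2.82 on luminal shROR2, and differed by -1.05 ± 0.25 (adjusted p = 0.405, limma). Rrm2, the small subunit of ribonucleotide reductase, had -0.29, -0.07 and -0.63 against -1.18 and -1.45 (-0.98 ± 0.25, adjusted p = 0.468, limma). Kif20a, a kinesin of the late spindle, had -1.31, -0.67 and -0.62 against -1.50 and -1.73 (-0.75 ± 0.27). Ccnd1 had 1.62, 1.69 and 1.52 against 2.00 and 1.98 (0.38 ± 0.16), the only one of these above 0. In each of the 4 genes, which were chosen for their small p, the shROR2 arrays lay outside the range of the shLUC arrays, and none passed the adjustment.

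In basal cells 3 listed genes were called, Orc1 as higher and Traip and Depdc1b as lower under shROR2. They are 7.69% of the 39, against 0.965% of all features (0.384% higher and 0.581% lower), though at an unadjusted p under 0.05 the shares were 15.4% and 15.8%. The median difference was 0.14, against -0.05 over all features, with 22 genes above and 17 below 0. The basal shROR2 values of Orc1, given above, were all above those of basal shLUC, by at least 1.30-fold with basal shLUC held at the lowest signal well above background. The fitted difference was 2.01 ± 0.22 (adjusted p = 0.0112, limma). The basal shLUC arrays enter both this comparison and that with luminal shLUC cells, so the pair of results for Orc1 is not independent. On these arrays Orc1 stood near its level in luminal cells, and it is the only licensing gene called, while Cdc6, Cdt1 and Mcm6 were at 0.28, 0.20 and 0.29 and Mcm2 at -0.48.

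Traip had -1.46, -1.85 and -1.63 on basal shLUC and -3.38, -3.07 and -3.04 on basal shROR2, so the 3 shROR2 arrays lay together well below. The difference was -1.51 ± 0.23 (adjusted p = 0.0271, limma), or 2.85-fold. Its second probe, well above background on 2 arrays, gave -0.14. Depdc1b, which codes for a protein with a DEP domain, had -2.16, -3.58 and -3.10 on basal shLUC and -5.25, -5.27 and -5.19 on basal shROR2. It was not well above background on any basal shROR2 array, so that basal shLUC was at least 1.21-fold higher, with a fitted difference of -2.29 ± 0.37 (adjusted p = 0.037, limma). The luminal values of Depdc1b were -2.16, -2.02 and -1.96 for shLUC and -2.92 and -1.74 for shROR2, and basal shROR2 cells were at least 1.85-fold below luminal shROR2 cells (adjusted p = 0.00117, limma).

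These 3 calls depended on the processing. In the authors' value table and with the normexp background correction the differences themselves were much smaller and none was called. Orc1 was at 0.32 in both (adjusted p = 0.0538 and 0.0564, limma), Traip at -0.38 and -0.37 (0.0722 and 0.0768), and Depdc1b at -0.39 and -0.33 (0.0736 and 0.154). The differences kept their size, but were not called, with only the basal groups in the fit (0.188, 0.188 and 0.21) or with 1 array weight per group (0.0761, 0.147 and 0.191). Traip and Depdc1b lost the call without any one of the luminal or basal shLUC arrays, Depdc1b also without basal shROR2 replicate 2 (0.0551) or 3 (0.0521), with the slide as a block (0.0614) and with no filter on dim probes (0.0591), and Orc1 without basal shLUC replicate 1 (adjusted p = 0.0511, limma) or 2 (0.0537). The fit with the replicate number as a block kept Orc1 only (adjusted p = 0.0482, limma). Counts over all listed genes ran from 0 to 4 when 1 array was left out (0% to 10.3%, against 0.0917% to 2.98% of all features). In both slides the differences had the same direction, at 1.92 and 2.20 for Orc1, -1.66 and -1.21 for Traip, and -2.59 and -1.70 for Depdc1b.

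**Figure D4:**
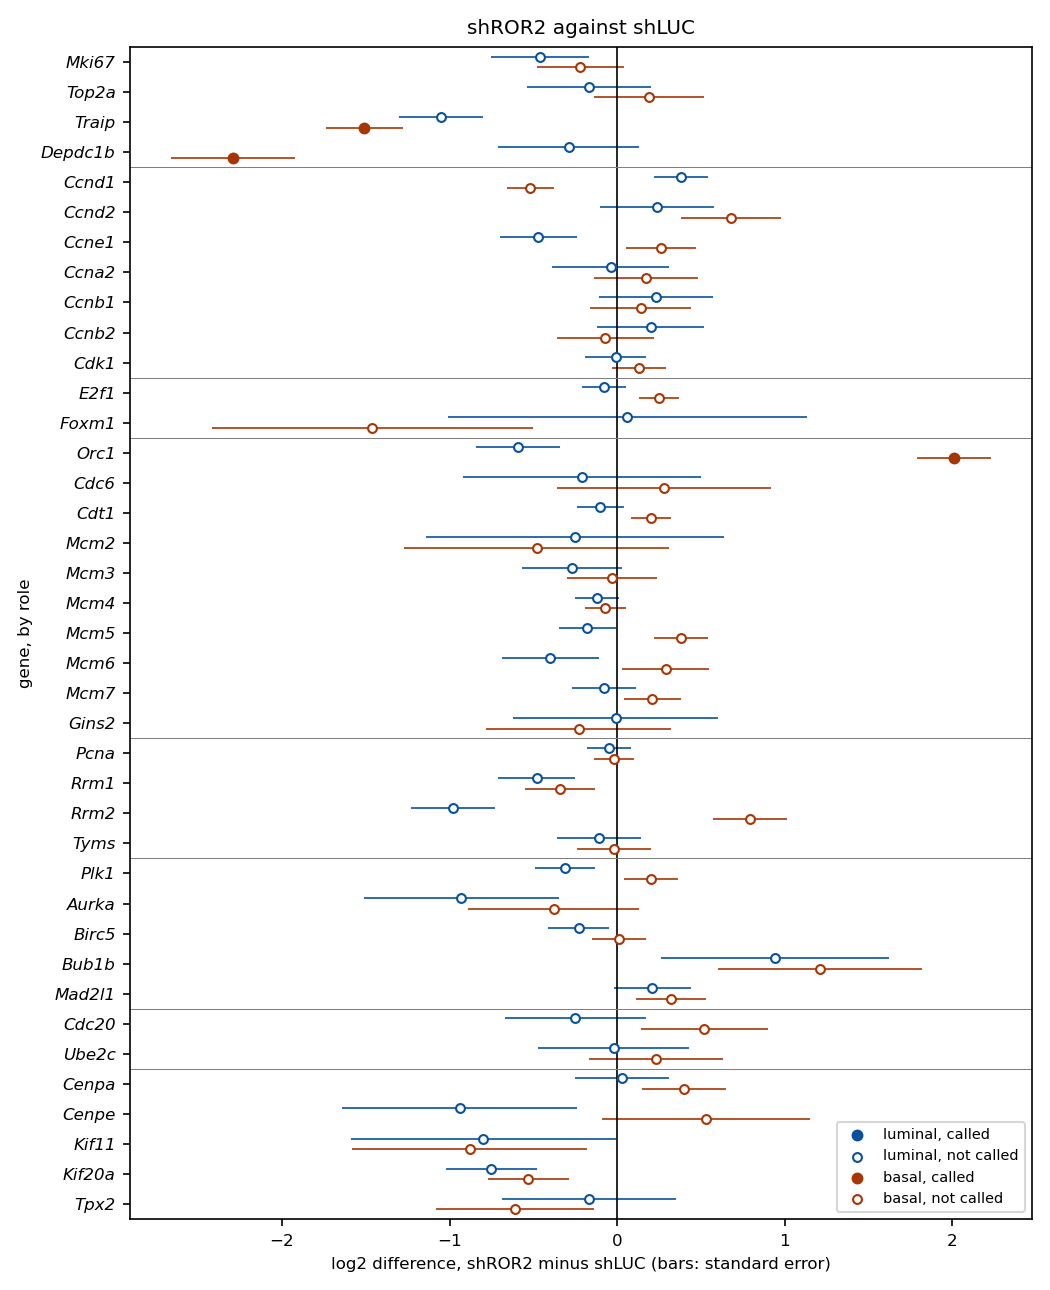
Log2 difference between shROR2 and shLUC outgrowths for the 39 tested genes (rows, by role), in luminal cells (blue) and basal cells (brown); bars are standard errors and filled points passed an adjusted p under 0.05. In basal cells Orc1 is right of 0 and Traip and Depdc1b are left of it, and Ccnd1 and Rrm2 have luminal and basal points on opposite sides.

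Of the genes not called in basal cells, Ccnd1, Rrm2, Mcm5 and Ccnd2 had the smallest p. Ccnd1 had 1.92, 2.11 and 2.11 on basal shLUC and 1.80, 1.28 and 1.49 on basal shROR2, a difference of -0.52 ± 0.14 (adjusted p = 0.132, limma). It passed without basal shROR2 replicate 1 (-0.66, adjusted p = 0.0375, limma) and with the normexp background correction (-0.50, adjusted p = 0.0471, limma). Rrm2 had -1.16, -0.99 and -0.88 against -0.19, 0.17 and -0.65 (0.79 ± 0.22, adjusted p = 0.147, limma). Mcm5, another helicase subunit, had 0.68, 0.52 and 0.50 against 0.87, 1.09 and 0.88 (0.38 ± 0.16). Its luminal values were 1.30, 1.53 and 1.34 for shLUC and 1.47 and 0.94 for shROR2. Ccnd2, with the values given above, was at 0.68 ± 0.30. All 4 had no overlap between the basal hairpin groups. Over the list 5 genes were higher and 4 lower without overlap, against 6.73% and 11.7% of all features, or 18.5% in both directions.

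The difference between the hairpin effects, basal minus luminal, was called for 0 of 39 genes and 0 of all features by limma. At an unadjusted p under 0.05 there were 6 of 39 (15.4%) and 8.29% of all features. Rrm2 was at 1.77 ± 0.34 (adjusted p = 0.246, limma) and Ccnd1 at -0.91 ± 0.21 (adjusted p = 0.345, limma), and these were 0.92 and -0.77 in the authors' value table. For Orc1 and Depdc1b, each with a group not well above background on any array, the size of this difference was not measured. Their fitted values were 2.60 (adjusted p = 0.0925, limma) and -2.01 (0.42), and 0.44 and -0.37 in the authors' value table. The median over the list was 0.24, against -0.04 over all features, and 29 of 39 were above 0. Below 0 in both compartments were 14 genes, above 0 in both were 5, lower in luminal and higher in basal cells were 17, and the reverse held for 3.

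Basal shROR2 arrays differed from each other more than those of other groups, for the cell cycle genes and for all features. In 19 of the 39 genes (48.7%) the lowest and highest of the 3 arrays were over 1 log2 unit apart, against 32.4% of all features. In luminal shLUC the shares were 7.69% and 11.2%, for luminal shROR2, with 2 arrays only, they came to 7.69% and 5.82%, and basal shLUC had 12.8% and 13.2%. Among the 27 genes well above background on all arrays, 11 (40.7%) had such a range in basal shROR2, against 18.5% of the 20794 features so detected. Whether the list differs from other genes in this was not tested. Foxm1 had -0.63, -5.42 and -2.40 there, with the second array not well above background, and its second probe differed by 0.67 between the basal groups, against -1.46 for the probe used. Mcm2 had -1.83, -2.23 and -5.33, Gins2 0.82, -0.72 and -1.83, and Ube2c 0.15, 1.54 and -0.30. The third array was the lowest of the 3 for Mcm2, Gins2 and Ube2c, and the second array for Foxm1. In each of these genes, which were chosen after their values were seen, the third array lay below every basal shLUC array. Over the 39 genes the third array was above the basal shROR2 mean in 20 and below it in 19. Levels of each gene were also taken relative to the mean of all its group means, not to the mean of the array's own group. The median of these levels over the list was 0.00, -0.08 and -0.24 on the 3 basal shROR2 arrays. It was -0.19, -0.23 and -0.24 on basal shLUC, 0.30, 0.49 and 0.29 on luminal shLUC, and 0.21 and 0.17 on luminal shROR2. The fit shares 1 variance per gene among the groups, which understates the error where the spread of basal shROR2 is wider.

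**Figure D5:**
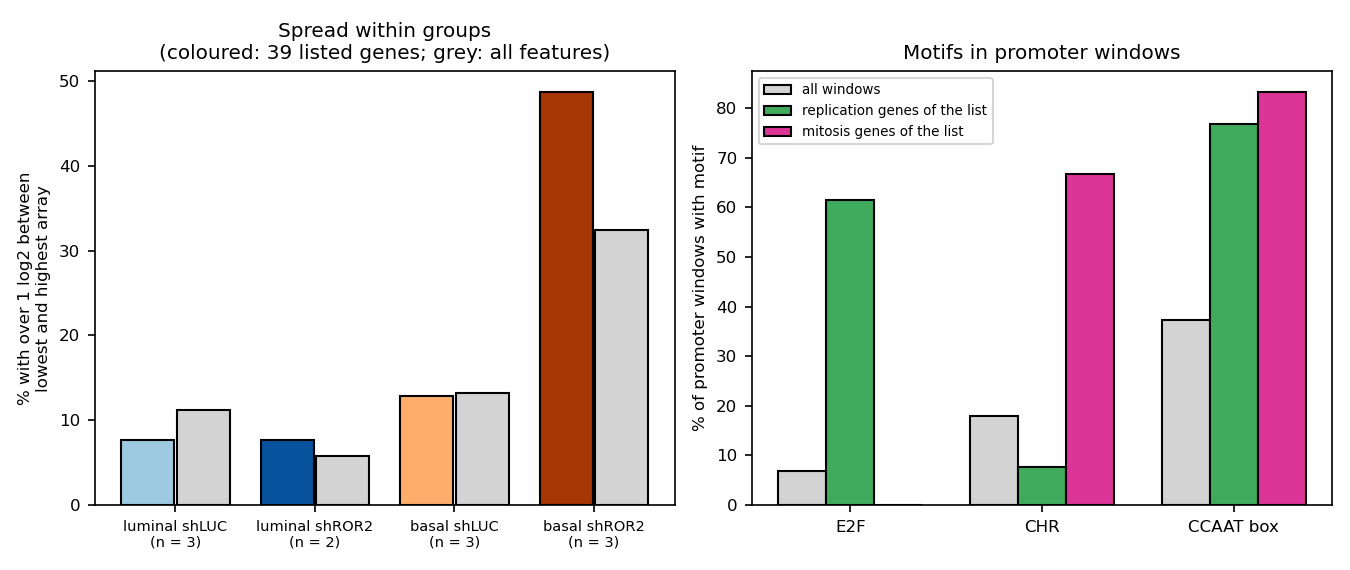
Left, percent of the 39 listed genes (coloured) and of all features (grey) whose lowest and highest arrays within a group are over 1 log2 unit apart; right, percent of promoter windows with a motif for all windows (grey), replication genes (green) and mitosis genes of the list (pink). Basal shROR2 stands out at 48.7% on the left, and on the right the E2F share is highest for replication genes (61.5%) and the CHR share for mitosis genes (66.7%, but 25% without the 50 bases after the start).

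Some markers of other cells differed between the hairpins too. Leukocyte markers without Itgam and Csf1r summed to 30.5 to 38.5 on basal shROR2 arrays and 41.3 to 46.4 on luminal shROR2 arrays, above the shLUC ranges given above. Most of each sum was Cd74, at 4.8 to 5.15 on basal shROR2 and 3.63 to 3.83 on basal shLUC arrays (log2). Cd74, Lyz2 and Adgre1 were higher under shROR2 without overlap in both compartments, while Ptprc, Cd3e and Cd79a overlapped in both. Endothelial markers summed to 35.85 to 44.61 on basal shROR2 and 13.21 to 13.51 on luminal shROR2 arrays, both above the shLUC ranges. Pecam1, Plvap and Emcn were higher under shROR2 without overlap in both compartments and Cdh5 in basal cells only, while Kdr and Tie1 overlapped in both. Fibroblast markers came to 46.65 to 61.48 on basal shROR2, which overlaps basal shLUC, and to 10.61 to 10.68 on luminal shROR2, above luminal shLUC. In basal cells Pdgfra was lower under shROR2 without overlap and well above background on no shROR2 array, while the other fibroblast markers overlapped. Hormone-sensing markers were at 10.52 to 11.09 on basal shROR2 and 152.3 to 154.2 on luminal shROR2 arrays, both above their shLUC ranges. Prlr and Cited1 were higher under shROR2 without overlap in both compartments, and Pgr and Foxa1 in luminal cells only. Esr1 and Areg overlapped in both. On basal arrays Esr1 was at -2.51 to -1.47 under shROR2 and at -1.5 to -0.88 under shLUC (log2). Progenitor or alveolar markers summed to 8.9 to 11.68, above basal shLUC, and to 92.44 to 95.04, within the range of luminal shLUC. These sums hide opposite directions. On luminal arrays Lalba, Elf5 and Aldh1a3 were higher under shROR2 without overlap, and Kit, Cd14, Csn2 and Csn1s1 lower. Lalba was at 4.48 to 4.7 against 2.92 to 3.05, and Csn1s1 at 4.51 to 4.61 against 5.08 to 5.24 (log2). On basal arrays Lalba and Cd14 were higher and Csn2 lower without overlap. The part of all these markers in the hairpin results was not tested.

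A wider list of the same pathways, without the 43 genes, held 127 genes, of which 126 had a probe and 108 were tested. Between basal and luminal shLUC cells 24 were lower (22.2%) and 6 higher (5.56%) in basal cells, against 13.3% and 13.7% of all features, with a median of -0.52. Among the lower genes were Tacc3 of the spindle (-1.20 ± 0.17), Lig1, the ligase of Okazaki fragments (-0.93 ± 0.13), and Prim1 of primase (-1.11 ± 0.16). Higher were the CDK inhibitor Cdkn1a (0.79 ± 0.12), the chromatin assembly subunit Chaf1b (0.72 ± 0.12), the polymerase subunit Pole2 (1.73 ± 0.31) and the repressor E2f8 (1.45 ± 0.32). Both other replication genes (11 of 42 lower) and other mitosis genes (11 of 43 lower) took part, and the E2F, DP and MuvB factors had 2 of 12 higher and none lower.

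Under shROR2, 18 of the 108 were lower (16.7%) and 7 higher (6.48%) in basal than in luminal cells, against 12.3% and 10.6% of all features. Lower were the pocket protein Rb1 (-1.78 ± 0.20), the condensin subunit Ncaph (-2.58 ± 0.39, at least 4.51-fold, dim in basal cells), Ect2 of cytokinesis (-2.05 ± 0.36) and the kinase Wee1 (-1.13 ± 0.21). Higher were the CDK inhibitor Cdkn1c (3.14 ± 0.36, at least 2.88-fold, dim in luminal cells), Cdkn1a (0.69 ± 0.13), Chaf1b (0.69 ± 0.13) and Pole2 (1.72 ± 0.35). Between the hairpins 0 of the 108 were called in either compartment, with medians of -0.16 in luminal and -0.05 in basal cells. At an unadjusted p under 0.05 there were 5 (4.63%) and 27 (25%), against 5.55% and 15.8% of all features by limma. Without basal shROR2 replicate 1 or 3, 4 and 3 of the 108 were called in basal cells, against 2.98% and 1.43% of all features. The shROR2 contrast had 11 and 7 calls without luminal shROR2 replicate 1 or 2, against 12.8% and 13.5% of all features. The shLUC contrast had 19 without luminal shLUC replicate 2, against 20.7% of all features.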

How the data were processed

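Each of the 11 samples was 1 array of a one-colour Agilent mouse design. The deposited scanner output gives intensity, already corrected for background within the array by Agilent Feature Extraction (version 11.0.1.1, per the file headers). The authors' value table, also deposited as intensity on a linear scale, was an alternative, with a normalization not stated in these sources. Control and outlier spots were left out, spots of a probe averaged, and log2 values reduced by the 75th percentile of the array. Genes were named from RefSeq accessions of the files (GRCm38.p6, names only), and the probe with the highest mean stood for a gene with several, as in 11 of the listed genes.

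Probes well above background on at least 3 arrays entered a limma 3.58.1 fit (lmFit and eBayes, R 4.3.3, data.table version 1.17.8) of 4 group means over all arrays. The fit was also run on simulated data, with the same spread of a gene in all groups and no background floor. That run cannot show how the fit behaves with the wider spread of basal shROR2 or for dim genes. Tests were 2-sided. Groups held 2 or 3 arrays, and what limits precision was not tested. Alternatives were normexp (offset 50), run on median signals because the files hold no mean signal, quantile and median scaling, and the authors' table. Further ones were other filters and probe rules, only the groups compared, slide or replicate number as a block, 1 array weight per group and leaving out each array. Figures were drawn with matplotlib 3.10.9 and pandas 2.3.3 in Python 3.11.15.

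The members and all gene lists were chosen with earlier results of these data known. By the naming rule, values in every array were given for listed genes called in a hairpin comparison, for the 5 largest called compartment differences in each direction and for the 4 smallest p among the uncalled genes of each hairpin comparison. Of the wider list up to 4 called genes a direction were named. Values in single arrays of Foxm1, Mcm2, Gins2 and Ube2c were chosen after they were seen. A gene that the naming rule picked from the wider list and 1 list of cell type markers are not reported here.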

Additional observations from a re-analysis of the deposited data

Results flagged for a closer look

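In 3 of the 39 genes every shROR2 array lay to one side of the shLUC arrays in luminal cells and to the other side in basal cells, against 1.95% of all features (7.69% of the list). The difference of hairpin effects was 1.77 for Rrm2 (-0.98 in luminal and 0.79 in basal cells) and -0.91 for Ccnd1 (0.38 and -0.52). For Orc1 the fitted value was 2.60, but neither luminal shROR2 nor basal shLUC was well above background on any array. Only bounds in the processed signal are measured there, at least 1.27-fold lower under shROR2 in luminal and at least 1.30-fold higher in basal cells. The fitted value ran down to 0.44 in the authors' value table. The limma test of that difference gave adjusted p of 0.246, 0.345 and 0.0925, so none was called. Groups of 2 or 3 arrays were too small to single out 1 array.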

How the results depend on the processing

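No called gene changed direction under any alternative. Counts of listed genes called between basal and luminal shLUC cells moved from 10 to 17 with only the groups compared and to 17 with 1 array weight per group. Both are 43.6%, against 35.2% and 38.7% of all features. Without 1 array the counts ran from 8 to 14 (20.5% to 35.9%, against 19.9% to 32.5% of all features). Under shROR2 the counts moved from 6 to 3 with only the groups compared (7.69%, against 9.61% of all features). Without 1 array they ran from 6 to 10 (15.4% to 25.6%, against 12.8% to 25.7% of all features). The basal hairpin count moved from 3 to 1 with normexp (Ccnd1, not one of the 3), 0 in the authors' table, 0 with only the groups compared and 0 with 1 array weight per group, and ran from 0 to 4 without 1 array. Of all features 2.33%, 1.84%, 0% and 0.116% were called in these fits, and 0.0917% to 2.98% without 1 array. Deviations from group means correlated at -0.04 to 0.04 over the 15 pairs of arrays with the same replicate number in different groups. With so few arrays a group, this cannot show whether samples were paired. The fit with the replicate block gave 9, 6, 0 and 1 calls in the 2 compartment and the luminal and basal hairpin comparisons, and 0 for the difference. Of all features it called 24.7%, 19.7%, 0%, 0.126% and 0%.

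The median of the list kept its sign. Normexp gave -0.24 and the authors' table -0.23 in place of -0.61 in shLUC, -0.13 and -0.15 in place of -0.35 in shROR2, and -0.09 and -0.08 in place of -0.17 in the luminal hairpin comparison. The authors' table gave 0.04 in place of 0.14 in the basal hairpin comparison, and normexp 0.15 in place of 0.24 for the difference. Within slides the medians were -0.48 (slide 2, shLUC), -0.24 and -0.20 (slides 1 and 2, shROR2), -0.08 (slide 1, luminal hairpin) and 0.05 (slide 1, basal hairpin). Without 1 array they ran from -0.63 to -0.46, -0.44 to -0.23, -0.23 to -0.12, 0.03 to 0.14 and 0.11 to 0.27. The cause of these shifts was not tested.

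Calls of the wider list, where the alternatives were added after seeing the data, moved from 30 of 108 to 47 with only the groups compared and 53 with 1 array weight per group in shLUC, against 35.2% and 38.7% of all features. In shROR2 they moved from 25 to 3 with only the groups compared, against 9.61% of all features. Without 1 array they ran from 19 to 40, 7 to 33 and, for the basal hairpin, 0 to 4. The shares of all features then were 19.9% to 32.5%, 12.8% to 25.7% and 0.0917% to 2.98%. The share of promoter windows with a CHR fell to 24.2% without the bases after the start. Near background, where Orc1 and Depdc1b lie, only bounds are measured.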
